A study of Mus musculus with 12 samples.

Results

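The 10 genes described here, Dusp1, Dusp2, Dusp4, Dusp5, Dusp6, Dusp7, Dusp8, Dusp10, Dusp14 and Dusp16, encode phosphatases that inactivate mitogen-activated protein (MAP) kinases. They were chosen by gene name from the 55357 genes listed, and all 10 had counts in all 12 libraries. Mouse embryos were collected at E17.5, and RNA came from a rostral and a caudal part of the cortex, hippocampal formation included. In the knockout, both copies of Egfr, the receptor for epidermal growth factor, were floxed (EgfrF/F) and Cre was driven by Nestin, a promoter active in neural progenitors. Controls had 1 floxed and 1 intact copy (EgfrF/+). Whether the controls carry Cre is not given in the sources used here, so loss of Egfr and presence of Cre cannot be told apart. Each genotype and part held 3 libraries, 12 in 4 groups, and the titles tie a rostral and a caudal library to each of 6 embryos: numbers 2, 5 and 7 for the knockout and 1, 3 and 9 for the control.

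MAP kinases are switched on when an upstream kinase phosphorylates a threonine and a tyrosine in their activation loop. Dual specificity phosphatases remove both phosphates and so switch them off. The 3 main classes of substrate are ERK, which carries signals from growth factor receptors such as EGFR through Ras, Raf and MEK, and JNK and p38, which respond mainly to stress and cytokines. Many of these phosphatase genes are themselves transcribed in response to MAP kinase activity, which makes them part of a negative feedback loop. Dusp1, Dusp2, Dusp4 and Dusp5 encode inducible nuclear enzymes, Dusp6 and Dusp7 cytoplasmic enzymes that prefer ERK, Dusp8, Dusp10 and Dusp16 enzymes that prefer JNK and p38, and Dusp14 a small atypical enzyme without the kinase-binding domain of the others.

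The promoter sequences of 3 of these genes are given first because the genes they belong to span the patterns described below: of the 10, Dusp5 had the largest difference between genotypes and Dusp1 the smallest p between the parts, and Dusp8 was abundant and varied little. Each runs 5′ to 3′ on the gene's own strand from 250 bases before to 50 bases after the RefSeq start site, in build GRCm38.p6. Capitals mark matches, on either strand, to the cyclic AMP response element (CRE) TGACGTCA, its short form TGACG, or the CArG box, the element that binds serum response factor.
Dusp5, chr19:53528895-53529194, plus strand: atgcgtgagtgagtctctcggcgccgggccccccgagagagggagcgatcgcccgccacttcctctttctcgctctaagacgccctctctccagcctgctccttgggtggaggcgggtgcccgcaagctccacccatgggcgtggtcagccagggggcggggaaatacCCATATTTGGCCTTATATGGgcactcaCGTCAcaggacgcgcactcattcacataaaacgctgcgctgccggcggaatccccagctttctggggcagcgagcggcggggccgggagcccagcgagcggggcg
Dusp1, chr17:26508423-26508722, minus strand: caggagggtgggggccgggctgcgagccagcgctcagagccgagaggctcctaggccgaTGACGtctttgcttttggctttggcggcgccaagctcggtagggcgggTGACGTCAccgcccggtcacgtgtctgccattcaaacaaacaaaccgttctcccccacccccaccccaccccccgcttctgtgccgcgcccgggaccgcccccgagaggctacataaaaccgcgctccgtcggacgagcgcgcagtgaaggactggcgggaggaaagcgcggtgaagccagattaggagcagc
Dusp8, chr7:142095235-142095534, minus strand: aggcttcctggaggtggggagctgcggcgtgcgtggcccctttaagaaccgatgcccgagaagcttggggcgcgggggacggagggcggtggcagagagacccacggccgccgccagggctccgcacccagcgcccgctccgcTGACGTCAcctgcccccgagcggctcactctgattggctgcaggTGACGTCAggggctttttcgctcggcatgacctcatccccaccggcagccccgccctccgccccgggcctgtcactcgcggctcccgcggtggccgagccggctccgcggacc

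The Dusp5 sequence held 2 adjoining CArG boxes, CCATATTTGG at positions -82 to -73 from the start site and CCTTATATGG at -72 to -63, and a short CRE at -55 to -51. A CArG box was present in 1.63% of the 32851 promoters of the same length, and Dusp5 was the only promoter among the 9 matched members that held one. The Dusp1 sequence held a full CRE at -143 to -136 and a separate short CRE at -191 to -187. Dusp8 held 2 full CREs, at -107 to -100 and -63 to -56. A full CRE, which by construction also matches the short form on both strands, was found in 1.79% of all promoters, and the short form in 20.8%. Of the other members, Dusp2 and Dusp16 held a short CRE, Dusp2 also an EGR site (GCGGGGGCG, in 2.91% of promoters) and Dusp14 an ETS site (CCGGAA, in 14.9%), while Dusp6, Dusp7 and Dusp10 held none of these. The AP-1 site TGANTCA, in 7.81% of promoters, was in none of the 9. A match is a description of letters within this window and not evidence that a factor binds there.

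Library totals ran from 25223732 to 30383672 estimated counts, and mitochondrial genes took 1.96% to 7.25% of them, with knockout rostral 7 (7.25%) and knockout caudal 5 (4.77%) above all others (at most 3.53%). Egfr itself, measured in CPM (counts scaled to a library total of 1e+06), lay between 3.601 and 7.33 in the 6 knockout libraries and between 19.2 and 41.6 in the 6 control libraries, without overlap. Other labels were not borne out by the counts. Control rostral 1 and control rostral 3 held both Xist (229.8 and 278 CPM) and Y-linked transcripts (94.6 and 92.0 CPM), so each held RNA from embryos of both sexes, and the rostral and caudal libraries titled 5, 2 and 9 differed in which of the 2 they held. Nr2f1, a transcription factor gene that is high caudally and low rostrally in the developing cortex, was below 100 CPM in 5 libraries (50.7 to 97.1), of which 2 were titled caudal, and between 205 and 373 CPM in the other 7. By Xist and the Y-linked transcripts, the sums of the rostral and caudal libraries titled 1, 2, 3, 5 and 9 each held RNA of more than 1 embryo. Both libraries titled 7 held Xist with almost no Y-linked transcripts, so for that sum this could not be told. The p-values measure the spread among these samples. In bulk RNA, fewer cells of a type and less RNA per cell cannot be told apart.

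On a scale corrected for exon length (TPM, the share of transcripts with each library scaled to the same total, mean ± SD over 12 libraries), Dusp4 was the most abundant of the 10 at 247 ± 34.9. It was followed by the JNK and p38 phosphatase gene Dusp8 at 96.7 ± 14.3 and by Dusp1 at 63.6 ± 12.8. These 3 genes stood in this order in 12 of 12 libraries, and each was above Dusp14 (21.7 ± 3.97) in all of them. Below Dusp14 came Dusp6 at 16.2 ± 3.76, Dusp16 at 12.6 ± 2.12 and Dusp7 at 12.1 ± 1.86 TPM. Dusp16 exceeded Dusp7 in only 7 of 12 libraries, so these neighbours did not differ beyond their spread. The same held for Dusp10 (8.005 ± 2.83 TPM) and Dusp5 (7.56 ± 3.84 TPM), which were in that order in 7 of 12 libraries. Dusp2, best known from activated lymphocytes, was lowest at 1.96 ± 0.451 TPM and rested on 14 to 49 counts per library.

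**Figure D1:**
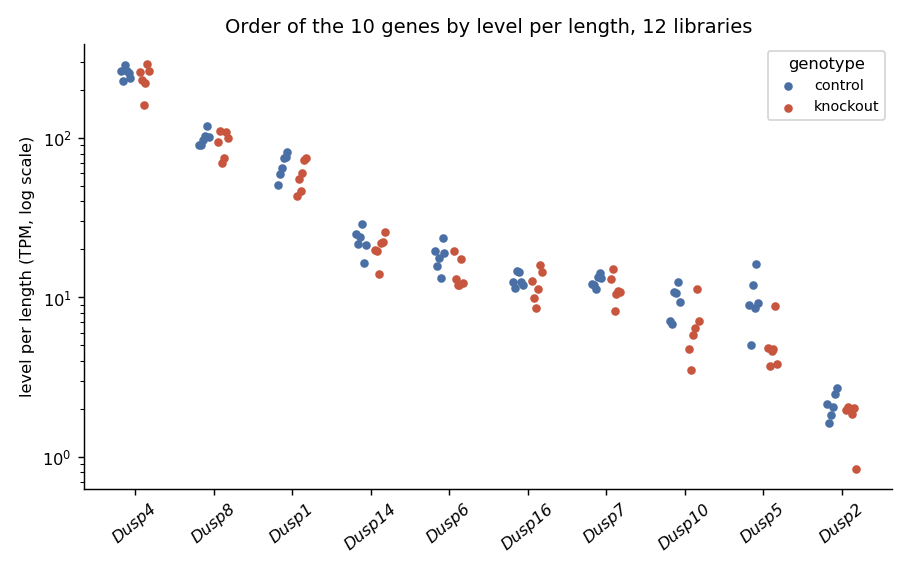
Level of each gene corrected for exon length (TPM, logarithmic axis), 1 point per library, with the genes ordered by their mean over 12 libraries and coloured by genotype. Dusp4, Dusp8 and Dusp1 lie above the other 7 genes, and the knockout points of Dusp5 and Dusp10 lie mostly below the control points.

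The genes also differed in how much they varied between libraries. The coefficient of variation of CPM over the 12 libraries was 9.20% for Dusp4 and 9.97% for Dusp8, the 2 most abundant genes. It was 48.5% for Dusp5 and 33.2% for Dusp10, whose highest libraries were 4.56 and 3.66 times their lowest. Dusp2 (24.9%), Dusp6 (20.7%), Dusp1 (19.6%), Dusp14 (16.3%), Dusp16 (13.02%) and Dusp7 (11.8%) lay between.

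**Figure D2:**
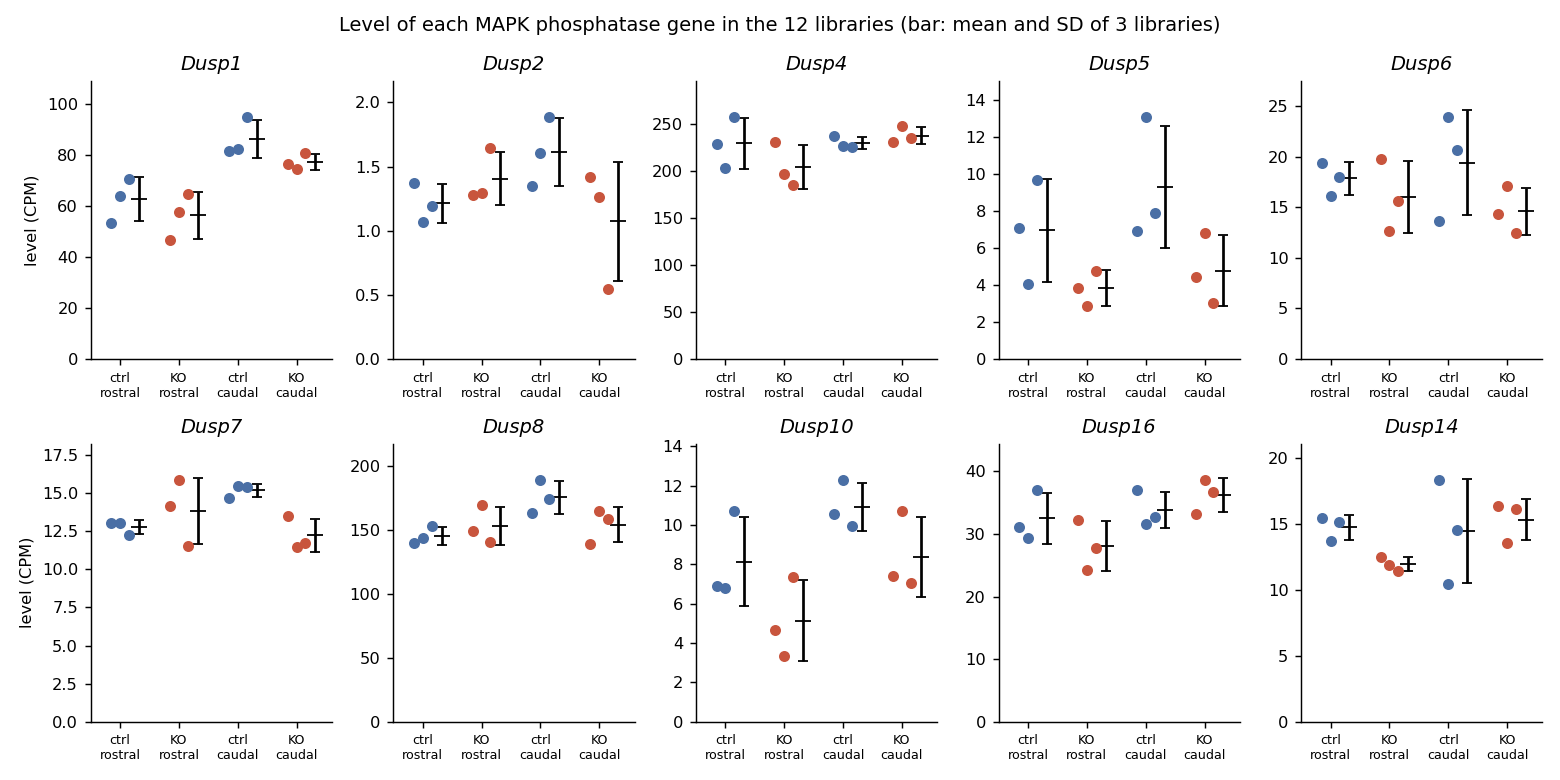
Level of each of the 10 genes in CPM in the 12 libraries, grouped by genotype (ctrl, control; KO, knockout) and part, with a bar at the mean and whiskers of 1 SD of the 3 libraries of a group. Dusp5 and Dusp10 have lower knockout than control means in both parts, and Dusp1 is higher in the 6 caudal than in the 6 rostral libraries.

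The first comparison asked how the genes differed between knockout and control when the rostral and caudal counts of each titled embryo were added, 3 sums against 3. Among the 10 genes Dusp5 had the largest difference (4.30 against 8.19 CPM), and Dusp10 and Dusp6 had smaller ones in the same direction. The other 7 had log2 fold changes from -0.15 (Dusp2) to -0.03 (Dusp16), each with a 95% confidence interval that included 0. With edgeR's quasi-likelihood test and Benjamini-Hochberg adjustment over 18935 genes, 0 of the 10 passed an adjusted p of 0.05, against 0.0317% of all genes tested (6 genes). At an unadjusted p under 0.05, 3 of the 10 were lower (Dusp5, Dusp10 and Dusp6) against 1.57% of all genes, and 0 were higher against 1.83% of all genes. All 10 fitted log2 fold changes were negative, against 50.2% of all genes, with a median of -0.10 for the 10 and -0.0004 over all genes.

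Among the inducible nuclear enzymes, Dusp5 encodes a phosphatase that acts on ERK and also holds it in the nucleus, and in the files' build, GRCm39, it lies on the plus strand of chromosome 19 from 53517540 to 53530862. Its values were 4.17, 4.76 and 3.95 CPM in the knockout sums titled 5, 2 and 7 and 7.02, 8.74 and 8.82 CPM in the control sums titled 1, 3 and 9. Every knockout sum was below every control sum. The means were 4.30 ± 0.419 and 8.19 ± 1.02 CPM (SD, n = 3), and the log2 fold change was -0.91 (SE 0.13, 95% confidence interval -1.20 to -0.61). edgeR gave this gene an unadjusted p of 7.92e-05 and an adjusted p of 0.120. DESeq2 gave the same size of difference with an adjusted p of 4.41e-06, and edgeR without a filter on low counts gave 8.80e-08. The exact two-sided permutation p was 0.1, the smallest that 3 against 3 allows. The SD, SE and p of the sums describe sums that mostly join RNA of different embryos, not single embryos. Same-numbered rostral and caudal libraries did not deviate together, and adding such libraries can even out their spread. Over all genes edgeR's common coefficient of variation between samples was 0.111 for the sums, 0.223 for the rostral and 0.180 for the caudal libraries.

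The single libraries of Dusp5 spread more than these sums. The rostral libraries held 3.85, 2.87 and 4.78 CPM in knockouts 5, 2 and 7 and 7.10, 4.08 and 9.69 CPM in controls 1, 3 and 9. Control rostral 3 thus lay below the highest knockout, and the groups overlapped. In the caudal libraries the knockouts held 4.46, 6.83 and 3.05 CPM and the controls 6.94, 13.1 and 7.92 CPM, with no overlap. Taken as 12 separate libraries, knockout against control gave a log2 fold change of -0.89 with an unadjusted p of 0.00769 and an adjusted p of 1.00 in edgeR. The difference was -1.14 without control rostral 1 and 3 and -0.97 without the 2 libraries richest in mitochondrial counts. It had the same direction within each number of the titles, -1.01 for 4692 (2 sums against 2) and -0.75 for 4858 (1 against 1).

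For the other 3 nuclear enzymes the groups overlapped in the sums. Dusp1, an immediate early gene whose product acts on all 3 kinase classes, had 62.2, 65.7 and 72.3 CPM in the knockout sums and 67.5, 73.4 and 82.4 CPM in the control sums. Its log2 fold change was -0.13 (95% confidence interval -0.35 to 0.09). Dusp4, the most abundant member, had 221 ± 10.98 CPM in the knockout and 230.3 ± 13.5 CPM in the control sums (SD, n = 3), and the interval of its log2 fold change was -0.18 to 0.11. Dusp2 had a wider interval, -0.53 to 0.23, at 1.25 ± 0.119 against 1.41 ± 0.103 CPM.

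Of the cytoplasmic ERK phosphatases, Dusp6 is the member best known as a feedback inhibitor of receptor tyrosine kinase signalling. Its sums were 16.9, 14.8 and 14.1 CPM in knockouts 5, 2 and 7 and 16.6, 20.2 and 19.3 CPM in controls 1, 3 and 9. Control 1 lay just below knockout 5, so the groups overlapped. The log2 fold change was -0.27 (SE 0.10, 95% confidence interval -0.50 to -0.04, edgeR unadjusted p 0.0286, adjusted p 1.00). Within the numbers of the titles it was -0.45 for 4692 and 0.03 for 4858. The groups did not overlap for Dusp7, but the highest knockout (13.80 CPM) and the lowest control (13.81 CPM) were nearly equal, and its log2 fold change was -0.07 (95% confidence interval -0.26 to 0.12).

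Among the phosphatases that prefer JNK and p38, Dusp10 (GRCm39 chromosome 1, 183745499 to 183807833, plus strand) had sums of 6.10, 6.86 and 7.21 CPM in knockouts 5, 2 and 7 and 8.71, 9.65 and 10.3 CPM in controls 1, 3 and 9. All 3 knockout sums were below all 3 control sums, and the means were 6.72 ± 0.566 and 9.56 ± 0.814 CPM (SD, n = 3). The log2 fold change was -0.48 (SE 0.11, 95% confidence interval -0.74 to -0.23), with an edgeR unadjusted p of 0.00223 and an adjusted p of 0.994. Without a filter on low counts the adjusted p was 0.0403, and DESeq2 gave 0.123. It was -0.51 within both title numbers. Dusp8 had 153 ± 12.2 against 161 ± 8.27 CPM and Dusp16 31.98 ± 0.806 against 33.2 ± 2.31 CPM, both with overlapping groups and log2 fold changes of -0.04 and -0.03. The atypical gene Dusp14 had 13.6 ± 0.922 against 14.6 ± 2.45 CPM, also overlapping. In all, 3 of the 10 genes (Dusp5, Dusp7 and Dusp10) had every knockout sum below every control sum, against 5.22% of all genes tested.

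**Figure D3:**
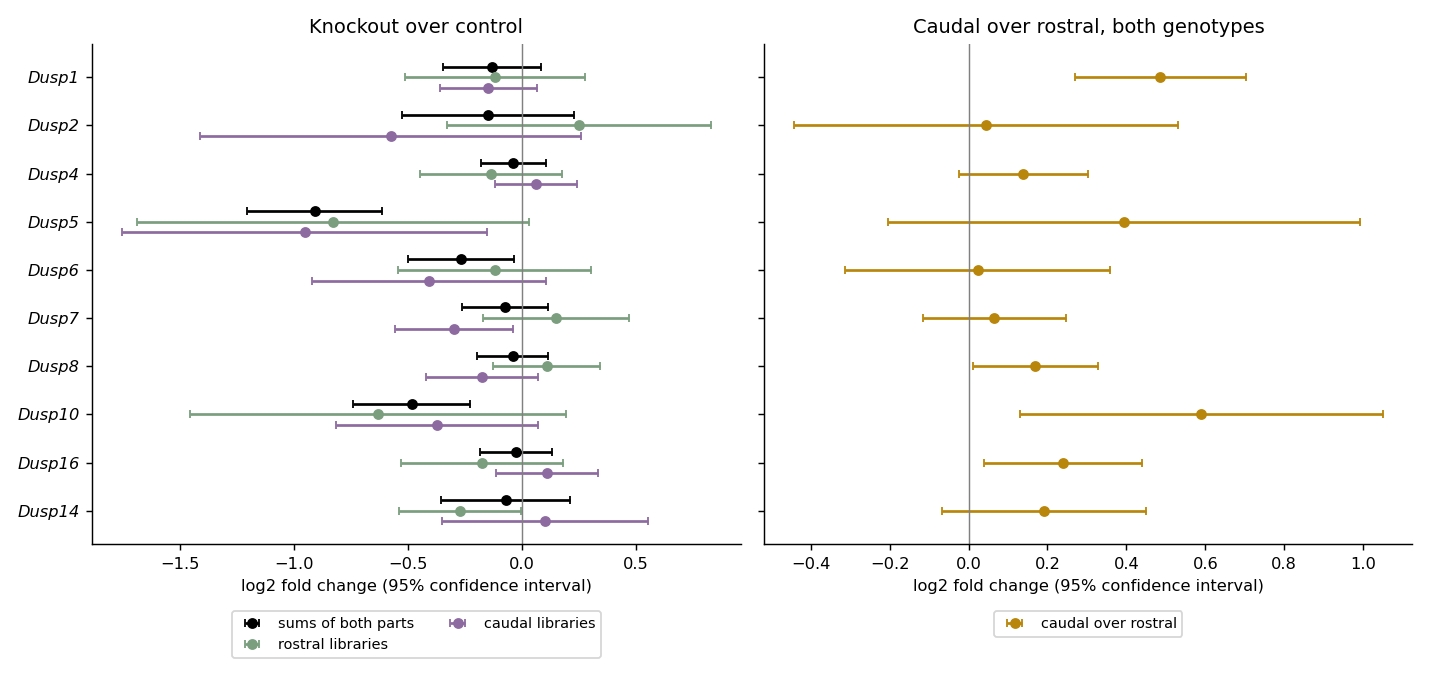
Fitted log2 fold change of each gene with its 95% confidence interval from edgeR, knockout over control on the left (sums of both parts, rostral libraries, caudal libraries) and caudal over rostral on the right. For the sums the intervals of Dusp5, Dusp10 and Dusp6 lie below 0, and for the parts those of Dusp1, Dusp10, Dusp16 and Dusp8 lie above 0, although none passed the adjusted threshold.

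Tested within the rostral libraries alone, 0 of the 10 passed the adjusted threshold in edgeR, against 0% of 17131 genes (0 genes called, with 180 at an unadjusted p under 0.05, and 4 called by DESeq2). Egfr itself was not called here either, with a log2 fold change of -2.27 (SE 0.30, edgeR unadjusted p 0.000146). Of the 10, 7 log2 fold changes were negative and 3 positive (Dusp2, Dusp7 and Dusp8), against 49.8% negative over all genes. At an unadjusted p under 0.05 the 1 gene was Dusp14, against 0.455% of all genes in that direction. Its levels were 12.5, 11.9 and 11.4 CPM in knockouts 5, 2 and 7 and 15.5, 13.7 and 15.1 CPM in controls 1, 3 and 9, a log2 fold change of -0.27 (SE 0.11). The groups did not overlap for Dusp14 alone of the 10, against 4.75% of all genes. In the caudal libraries Dusp14 had a log2 fold change of 0.10 (SE 0.19), with overlapping groups. Dusp5 (-0.83, SE 0.36) and Dusp10 (-0.63, SE 0.35) had larger rostral estimates than Dusp14, with intervals that reached past 0. Leaving out replicate 9 gave -0.49 for Dusp5 and -0.36 for Dusp10, leaving out replicate 2 gave -0.40 for Dusp10, and leaving out replicate 7 gave -1.01 for it. Without control rostral 1 and 3 the estimates were -1.34 for Dusp5 and -1.06 for Dusp10.

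Within the caudal libraries, 0 of the 10 passed the adjusted threshold in edgeR, against 0.0472% of 16964 genes (8 genes). At an unadjusted p under 0.05, 2 were lower in the knockout, Dusp5 (-0.95, SE 0.34, unadjusted p 0.0257, adjusted p 0.905) and Dusp7 (-0.30, SE 0.11, unadjusted p 0.0286, adjusted p 0.918), against 3.13% of all genes. Of the 10 log2 fold changes, 7 were negative against 50.4% of all genes, with a median of -0.24. Dusp7 held 13.5, 11.5 and 11.7 CPM in knockouts 5, 2 and 7 and 14.7, 15.5 and 15.4 CPM in controls 1, 3 and 9. Every caudal knockout library was below every caudal control library for Dusp7, Dusp5 and Dusp1, 3 of the 10 against 6.14% of all genes. Dusp1 had 76.3, 74.6 and 80.6 CPM in the knockouts and 81.7, 82.1 and 94.7 CPM in the controls, a log2 fold change of -0.15 (SE 0.09). Dusp2 had the second largest caudal estimate (-0.58, SE 0.36), with an interval of -1.41 to 0.26 that rested on few counts, 14 in knockout caudal 7. These caudal estimates depended on single libraries: Dusp5 was -0.62 without replicate 3, Dusp1 -0.07 without replicate 9, and Dusp2 -0.27 without replicate 7.

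Whether the genotype difference itself differed between the parts was tested as an interaction over the 12 libraries. In edgeR 0 of the 10 passed, against 0% of 17734 genes (0 called, with 486 at an unadjusted p under 0.05, and 0 called by DESeq2). Of the 10 interactions 6 were negative, against 51% of all genes. Dusp7 was the 1 gene at an unadjusted p under 0.05, against 1.23% of all genes in that direction: its knockout over control difference on the log2 scale changed by -0.45 from the rostral to the caudal libraries (SE 0.16, 95% confidence interval -0.81 to -0.08, unadjusted p 0.0201, adjusted p 0.998). Its rostral levels were 14.1, 15.9 and 11.5 CPM in knockouts 5, 2 and 7 and 13.02, 13.1 and 12.3 CPM in controls 1, 3 and 9, where the groups overlapped. The Dusp7 interaction was -0.29 without titled embryos 2 and 3. For Dusp5 the interaction was -0.12 with an interval of -1.32 to 1.08, and for Dusp10 it was 0.26 with an interval of -0.65 to 1.18. These intervals are too wide to show whether the differences of Dusp5 and Dusp10 were of like size in both parts.

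The comparison of the caudal with the rostral libraries, over both genotypes, gave 10 of 10 positive log2 fold changes (median 0.18) against 50.2% of all genes (median 0.0008). In edgeR 0 of the 10 passed the adjusted threshold, against 0% of 17734 genes (0 called, with 1765 at an unadjusted p under 0.05, and 83 called by DESeq2). At an unadjusted p under 0.05, 4 were higher caudally, Dusp1, Dusp10, Dusp16 and Dusp8, against 4.14% of all genes. These include all 3 genes whose products prefer JNK and p38. The median log2 fold change of those 3 was 0.24, against 0.04 for the 2 cytoplasmic ERK phosphatases. It was 0.27 for the 4 inducible nuclear enzymes, so higher caudal estimates were not particular to the JNK and p38 class.

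Dusp1 (GRCm39 chromosome 17, 26724564 to 26781102, minus strand) lay between 46.6 and 70.5 CPM in the 6 rostral libraries (median 60.7) and between 74.6 and 94.7 CPM in the 6 caudal libraries (median 81.1). The parts as titled did not overlap, which was so for 1 of the 10 and for 0.113% of all genes in that direction. Split by Nr2f1 instead of by title, the Dusp1 ranges did overlap. They were 46.6 to 82.1 CPM in the 5 libraries with Nr2f1 below 100 CPM and 57.5 to 94.7 CPM in the other 7. The log2 fold change was 0.49 (SE 0.10, 95% confidence interval 0.27 to 0.70), with an edgeR unadjusted p of 0.000429 and an adjusted p of 0.422, and DESeq2 gave an adjusted p of 0.00733. The exact permutation p of 0.00216 is the smallest that 6 against 6 allows. Without control rostral 1 and 3 the log2 fold change was 0.38, and without titled embryos 2 and 3, whose rostral library was the one higher in Nr2f1, it was 0.52.

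Dusp10 held 3.36 to 10.7 CPM rostrally (median 6.84) and 7.03 to 12.3 CPM caudally (median 10.2). The parts overlapped, and the log2 fold change of 0.59 (SE 0.21, edgeR unadjusted p 0.0165, adjusted p 0.448) was 0.37 without control rostral 1 and 3, likewise 0.37 without replicate 2, and 0.25 without titled embryos 2 and 3. Dusp16 (0.24, SE 0.09) held 24.3 to 37.0 CPM rostrally and 31.7 to 38.6 CPM caudally, and Dusp8 (0.17, SE 0.07) held 139 to 169 and 139 to 189 CPM. Both overlapped between the parts. Without control rostral 1 and 3 they were 0.13 for Dusp16 and 0.11 for Dusp8, and without titled embryos 2 and 3 Dusp16 was 0.14. Dusp5 had an estimate of 0.39 (SE 0.27) with libraries from 2.87 to 9.69 CPM rostrally and 3.05 to 13.1 CPM caudally, and the estimate was -0.17 without titled embryos 2 and 3. The remaining estimates were 0.19 for Dusp14, 0.14 for Dusp4, 0.07 for Dusp7, 0.04 for Dusp2 and 0.02 for Dusp6, and their intervals included 0.

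The same comparisons were read for the other genes of the pathway. Upstream of ERK, 1 of 12 receptor genes was called in the sums, Egfr itself (5.76 ± 0.717 against 30.8 ± 5.92 CPM, log2 fold change -2.39, SE 0.17, adjusted p 0.00553 in edgeR). Of 18 genes for Ras, Raf, MEK, ERK and their exchange factors, 9 had negative and 9 positive estimates with 0 called and a median of -0.0002, and those with the smallest p were Hras (log2 fold change 0.10, unadjusted p 0.211) and Rras2 (log2 fold change -0.22, unadjusted p 0.250 in edgeR). Of 19 tested genes of the JNK and p38 cascade, 15 had negative and 4 positive estimates with 0 called and a median of -0.02, and those with the smallest p were Map3k12 (log2 fold change 0.08, SE 0.07) and Mapk8 (log2 fold change -0.05, SE 0.06). The kinase cascades that the phosphatases act on thus had medians near 0 at the RNA level.

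Among other negative regulators, all 9 tested Sprouty, Spred and Etv genes, which hold inhibitors and transcription factors induced by ERK, had negative estimates in the sums, with 0 called and a median of -0.08. In the rostral libraries 7 of the 9 were negative (median -0.12), but in the caudal libraries only 3 were (median 0.01), with 0 called in either. The 2 with the smallest p were Spry4 (5.97 ± 0.784 against 8.07 ± 0.408 CPM, log2 fold change -0.41, unadjusted p 0.00703) and Spred3 (22.7 ± 1.95 against 27.6 ± 1.28 CPM, -0.26, unadjusted p 0.00743), each with an adjusted p of 1.00 in edgeR. All 4 tested MAP kinase phosphatases of other families had negative estimates with 0 called and a median of -0.04, including Ptprr (-0.47, SE 0.24) and Ppm1a (-0.04, SE 0.05). Of 14 other dual specificity phosphatases 11 had negative and 3 positive estimates, with 0 called and a median of -0.03, and those with the smallest p were Dusp18 (log2 fold change -0.13, SE 0.07) and Ssh3 (log2 fold change -0.30, SE 0.26). The X-linked ERK phosphatase gene Dusp9 had 0 to 7 counts per library and was too low to test.

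Of the 7 pathway lists, the one with the median farthest from 0 in the sums held immediate early genes, which are transcribed within minutes of MAP kinase activation. In the sums 18 of 21 had negative estimates, 11 had an unadjusted p under 0.05, 0 were called, and the median was -0.38. Over all genes 50.2% had negative estimates, and 643 of 18935 had an unadjusted p under 0.05 in edgeR. Klf6 had 60.2 ± 4.02 against 83.1 ± 1.85 CPM (-0.44, edgeR adjusted p 0.0869) and Egr1 225 ± 18.9 against 362 ± 34.01 CPM (-0.66, adjusted p 0.120). In the comparison of parts 18 of 21 had positive estimates, with 11 at an unadjusted p under 0.05 in either direction, 0 called and a median of 0.38. Jun, with 0.72 (SE 0.15), was among them. Over all genes 50.2% had positive estimates, and 1765 of 17734 had an unadjusted p under 0.05 in either direction in edgeR. Summed over 22 genes, these levels ran from 822 to 1655 CPM in the knockout and 1138 to 2258 CPM in the control libraries, and from 822 to 1465 CPM rostrally and 1124 to 2258 CPM caudally. The median of the list had the sign of the Dusp5 estimate between genotypes and of the Dusp1 estimate between parts, with 3 of 21 genes of the opposite sign each time, and its part in those results was not tested. A list of 8 genes of dissociation and stress response had 7 negative and 1 positive estimates in the sums (median -0.07). Between parts it had 7 positive and 1 negative (median 0.15), with 0 called in either comparison. The part of that list was not tested either.

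Markers of cell types were read in the same sums. The 5 markers of oligodendrocyte precursors summed to 36.0 to 88.0 CPM in the knockout and 77.8 to 125.8 CPM in the control libraries, and 2 of the 5 were called lower in the sums by edgeR. These were Olig2 (7.75 ± 0.677 against 19.8 ± 2.27 CPM, adjusted p 0.00764) and Olig1 (11.8 ± 0.999 against 28.6 ± 3.58 CPM, adjusted p 0.00810), 2 transcription factor genes of the oligodendrocyte lineage named here after their values were seen. Of the other 3, 2 had negative estimates and 1 a positive one. The 9 markers of ventral forebrain and striatum, regions outside the labelled tissue, all had negative estimates with 0 called (median -0.64). They summed to 70.4 to 302 CPM in the knockout against 128 to 441 CPM in the control. Whether their RNA came from outside the labelled tissue was not tested. With 0 called in each, estimates were negative for 7 of 7 markers of GABAergic interneurons (median -0.28), 4 of 4 tested of choroid plexus (-1.15) and 6 of 6 of endothelium (-0.08), and positive for 5 of 5 of astrocytes (0.17), 5 of 8 of radial glia and progenitors (0.14), 4 of 6 of microglia (0.11) and 5 of 6 of blood (0.10). The 8 markers of cortical excitatory neurons, the labelled tissue's main cell type, had 5 positive estimates (median 0.05, 0 called) and summed to between 1519.7 and 2506 CPM over the 12 libraries. The part of these cells in the values of Dusp5 and Dusp10 was not tested.

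Across the 12 libraries the genes most like each member were taken by Pearson's r of log2(CPM + 1) over about 10864 genes with a mean of at least 5 CPM. The libraries share genotype, part and depth, so r is a description and carries no p. For Dusp5 these were Srf (0.948), Polr2m (0.919) and Klf6 (0.916). Srf, which encodes serum response factor, lay between 36.7 and 47.0 CPM in the knockout and between 42.2 and 64.5 CPM in the control libraries. Control rostral 3, the lowest control for Dusp5, was also the lowest control for Srf (42.2 CPM), Polr2m (167.8 CPM) and Klf6 (68.8 CPM). These 3 genes were picked for following Dusp5 over the same 12 libraries, so a shared low library follows from the choice and is no separate result. For Dusp1 they were Sh2d3c (0.962), Jun (0.961) and Jund (0.937), with Jun between 95.5 and 158 CPM rostrally and between 174 and 285 CPM caudally. For Dusp6 they were Dhtkd1 (0.883), Spry4 (0.865) and Nphp4 (0.830).

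**Figure D4:**
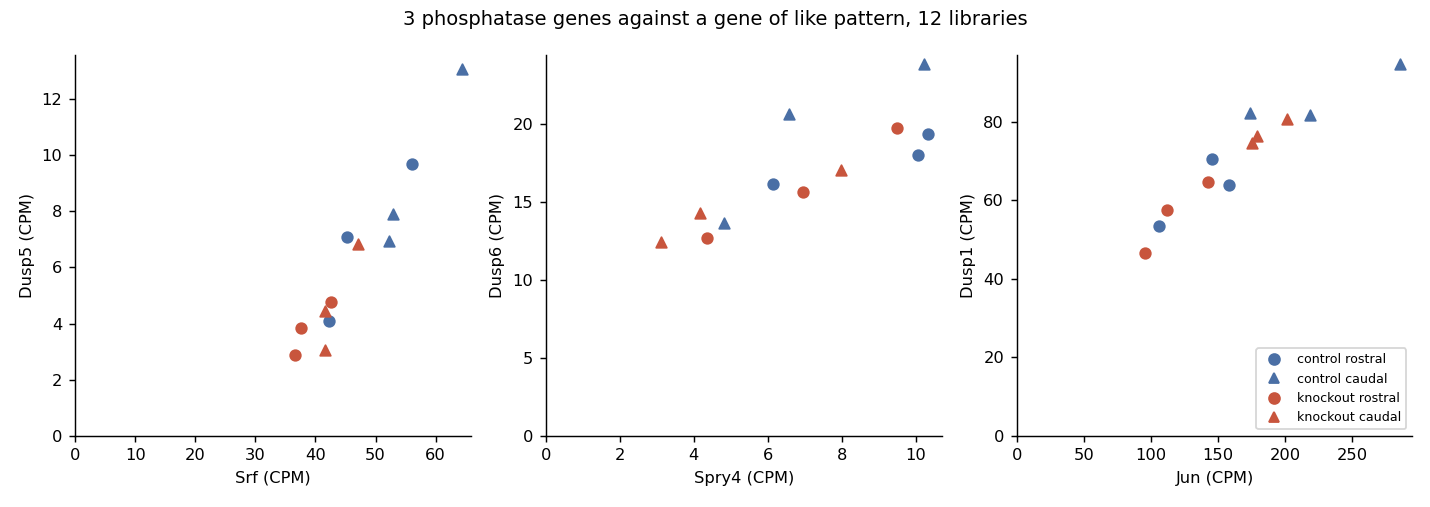
Levels in CPM of Dusp5 against Srf, Dusp6 against Spry4 and Dusp1 against Jun in the 12 libraries, coloured by genotype with circles for rostral and triangles for caudal libraries. By r, Srf had rank 1 for Dusp5, while Spry4 for Dusp6 and Jun for Dusp1 had rank 2, behind Dhtkd1 and Sh2d3c. The knockout points lie toward the low end for Dusp5 and Srf, and the caudal points lie above the rostral points for Dusp1 and Jun.

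The ranges of all 10 members overlapped between the 5 libraries with Nr2f1 below 100 CPM and the other 7, among them Dusp6 (17.1 to 23.9 and 12.4 to 20.7 CPM) and Dusp4 (227 to 257.5 and 185 to 237 CPM). Those of Spry4 did not (7.98 to 10.3 and 3.12 to 6.96 CPM). How many of all genes overlap or part in this way was not computed, so neither can be called particular to these genes. The remaining members had their highest r with Elp4 (0.962, Dusp16), Sin3a (0.945, Dusp4), Tgif2 (0.933, Dusp14), Grb10 (0.929, Dusp10), Dusp18 (0.920, Dusp8), Serpine2 (0.888, Dusp2) and Maf (0.828, Dusp7).

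Among themselves the 10 genes did not vary as 1 group. Of the 45 pairs, 4 had an r of at least 0.7 over the 12 libraries, 11 were negative, and the median was 0.270. The 4 pairs were Dusp4 with Dusp16 (0.884), Dusp5 with Dusp10 (0.834), Dusp5 with Dusp6 (0.732) and Dusp1 with Dusp10 (0.728). The cytoplasmic pair Dusp6 and Dusp7 was not among them.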

How the data were processed

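Messenger RNA of 12 libraries was captured and sequenced as paired reads, per the labels' protocols. The authors used STAR 2.7.8a, featureCounts 2.0.3 and the GRCm39 build, per the submitters' processing notes. Fragments on the reverse strand were assigned to GENCODE vM28 genes, per the file headers, and those with several places or genes were split between them. The authors deposited the result as estimated counts, also called expected counts, per gene without normalization. How much of a member's count came from split fragments cannot be read from the totals.

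Here the rounded counts entered edgeR 4.0.16 under R 4.3.3 (TMM scaling, filterByExpr, robust quasi-likelihood fits, Benjamini-Hochberg adjustment over all genes tested, threshold 0.05). The standard error is the log2 fold change over the root of F. CPM are counts over the library total and TPM also use exon length. Sums add the rostral and caudal library of a titled embryo. Scripts were tested on simulated data. Alternatives were DESeq2 1.42.0, its size factors, no filter, each replicate left out, blocks by replicate number and title number, 12 separate libraries, and, chosen after seeing the data, fits without libraries that stood apart. Groups of 3 limit precision, and intervals are at 95%.

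Same-numbered rostral and caudal libraries did not deviate together: over 1000 autosomal genes 1 of 6 correlations was above 0.1 (range -0.706 to 0.176), so the main fit carries no block. Some libraries of different numbers did, such as knockout rostral 2 with caudal 7 (0.779) and control rostral 3 with caudal 9 (0.709). Others had negative correlations, such as knockout rostral 2 with caudal 5 (-0.410). The members, lists and tests were chosen with earlier results of these data known. The text names all 10 members, Egfr, from each pathway list the genes called or else the 2 with the smallest p in the sums, and the genes most like a member. Promoters came from RefSeq (GRCm38.p6), where 9 of 10 members matched, not Dusp4. Coordinates of that build were not converted.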

Additional observations from a re-analysis of the deposited data

How the results depend on the processing

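No member passed the adjusted threshold in the main tests. Of 600 member values under alternatives, 34 changed sign and 4 newly passed the threshold. Those that newly passed were Dusp5 in the sums (DESeq2 adjusted p 4.41e-06, no filter 8.80e-08), Dusp10 in the sums (no filter 0.0403) and Dusp1 between parts (DESeq2 0.00733). The log2 fold change of Dusp5 ran from -1.02 to -0.84 in the sums with 1 replicate left out and reached -1.14 over separate libraries without control rostral 1 and 3. The cause of these changes was not tested.

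The count of genes called in the sums was 6 in the main test, 32 with DESeq2, 113 with no filter, 2 to 21 with 1 replicate left out (2 without replicate 5, 21 without replicate 2, 10 without replicate 3) and 2 over 12 separate libraries without knockout rostral 7 and caudal 5. In the rostral libraries it was 0, against 4 with DESeq2, 2 with no filter and 0 with any replicate left out. In the caudal libraries it was 8, against 77 with DESeq2, 57 with no filter and 2 to 8 with 1 replicate left out. Between parts it was 0, against 83 with DESeq2, 2 with no filter, 16 without titled embryos 2 and 3, and 0 to 6 with 1 replicate left out. For the interaction it was 0, and 0 to 6 with 1 replicate left out (6 without replicate 9).

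The replicate block gave 0 genes between parts (1063 at an unadjusted p under 0.05) and 0 for the interaction (256). With this block Dusp1 differed by 0.50 between parts (adjusted p 0.653 in edgeR). Of the 6 rostral libraries, 1 correlated best with the caudal library of its own number among the 3 caudal libraries of its genotype.

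Signs that changed belonged to estimates near 0 or with wide intervals. Over 12 separate libraries without knockout rostral 7 and caudal 5, Dusp4 was 0.0038 and Dusp8 0.027 between genotypes. Dusp8 was -0.0039 in the rostral libraries without control rostral 1 and 3. Between parts Dusp6 was -0.0036 without control rostral 1 and 3. Without titled embryos 2 and 3, Dusp2 was -0.098, Dusp5 -0.17 and Dusp6 -0.25. Without knockout rostral 7 and caudal 5, Dusp2 was -0.0067 and Dusp7 -0.021. The interaction was 0.18 for Dusp1 and 0.39 for Dusp5 without control rostral 1 and 3, and 0.11 and 0.14 without knockout rostral 7 and caudal 5.

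With 1 replicate left out, the sums ranged from -0.084 to 0.010 for Dusp4, -0.095 to 0.0051 for Dusp8, -0.19 to 0.039 for Dusp14 and -0.084 to 0.021 for Dusp16. The rostral values ranged from -0.25 to 0.014 for Dusp1 and -0.28 to 0.029 for Dusp6, and the caudal values from -0.078 to 0.30 for Dusp14. Between parts the range was -0.11 to 0.27 for Dusp2 and -0.11 to 0.15 for Dusp6. For the interaction it was -0.13 to 0.059 for Dusp1, -0.64 to 0.49 for Dusp5 and -0.18 to 0.74 for Dusp10. Depth limits Dusp2 most, at 14 to 49 counts per library.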
